A study of Mus musculus with 4 samples.

Results

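The genes described here copy the genome in S phase or prepare cells for it at the passage from G1, the gap phase before DNA synthesis. They are 39 genes of DNA replication and G1/S control, listed by name and role, with earlier results of these arrays known. Each was read from its probe set (a group of short oligonucleotide probes for 1 transcript) of highest mean log2 signal. Of the 39 genes, 38 had a probe set that names them alone, out of 18193 genes named on the arrays; Chaf1a had none and was not analysed. All 38 passed the filter on low signals, which left 16269 genes.

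The cells were mouse embryonic 3T3 fibroblasts, an immortal cell line. They grew in 10% bovine calf serum and were then held overnight in 0.5% serum, which all groups share. One group was harvested at that point (basal), and the remaining groups after 0.5, 2 or 12 h with tumour necrosis factor (TNF), a cytokine released in inflammation. The labels give 10 ng/ml TNF for the 0.5 h and 12 h samples, and name no concentration for the 2 h sample, whose protocol text is that of basal cells. Each of the 4 groups is 1 Affymetrix Mouse Genome 430 2.0 array of total RNA, so values have no replicate error, and the number of tests run is 0.

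With 1 array per group, a gene "rose" or "fell" here only if its signal differed at least 2-fold from basal; smaller differences are given as values. No array holds cells kept in low serum for a further 12 h after the overnight hold without TNF. Effects of TNF and of added time therefore cannot be told apart. In bulk RNA, fewer cells in S phase and less of these RNAs per cell cannot be told apart either. The median signal of all probe sets went from 22.1 in basal cells to 21.3, 20.7 and 19.9 at 0.5, 2 and 12 h, so ratios are given as deposited and after loess, a smooth correction for shifts that depend on signal. Of 12 fibroblast markers, 7 lay above a signal of 102 (the 75th percentile of all values) on every array, among them Col1a1, Col1a2 and Vim, while Thy1, Dcn and Lum were low and Fap was below the floor of 9.08 on all 4. Of the 17 macrophage or leukocyte, endothelial and epithelial markers with a probe set, 0 lay above 102 on every array, although Cd14 reached 111 at 0.5 h. Ptprc, the common leukocyte marker, and Itgam, a myeloid marker, were below that floor on all 4.

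Replication starts at origins. The origin recognition complex (Orc1 to Orc6) with Cdc6 and Cdt1 loads the MCM ring (Mcm2 to Mcm7), and the kinase Cdc7 with its subunit Dbf4, together with Cdc45 and the GINS proteins, turns the ring into a moving helicase. Primase and polymerase alpha lay down primers, the RFC complex loads the sliding clamp PCNA, and polymerases delta and epsilon copy the strands. Many of these genes are textbook targets of E2F transcription factors, which cyclin E and its kinase help to release from the retinoblastoma protein late in G1.

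The promoters of several members carry the letters of the E2F site. Promoter windows of 300 bases (250 before to 50 after the transcript's start, RefSeq, GRCm38.p6) were found for 32 of the 39 genes, 38 windows in all. The letters searched were TTTCCCGC, TTTCGCGC, TTTGCCGC and TTTGGCGC on both strands; matches may overlap one another. Of the 38 windows, 11 held at least 1 match (28.9%), each from a different gene, against 2.26% of all 32851 windows and 3.39% of the 16407 windows of analysed genes. The 6 stretches of 30 bases below are those of the MCM genes with a match, of Pola1, whose signal fell most, and of Pold1, whose signal at 12 h was close to basal. Each is the match nearest to the start of transcription, in the direction of the gene, with the match in capitals; a match on the opposite strand reads as its reverse complement.
Mcm3: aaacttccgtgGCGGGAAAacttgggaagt
Mcm5: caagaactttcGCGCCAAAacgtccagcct
Mcm6: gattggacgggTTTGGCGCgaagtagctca
Mcm7: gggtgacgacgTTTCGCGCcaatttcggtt
Pola1: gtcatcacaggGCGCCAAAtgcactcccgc
Pold1: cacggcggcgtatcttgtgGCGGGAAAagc

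The Mcm3 stretch is at chr1:20820275-20820304 (minus strand), 20 bases after the start, and that of Mcm5 at chr8:75109349-75109378 (plus strand), 149 bases before it. The Mcm6 stretch lies at chr1:128359734-128359763 (minus strand), 47 bases before the start. The Mcm7 stretch lies at chr5:138171849-138171878 (minus strand), 17 bases after it. The Pola1 stretch is at chrX:93632275-93632304 (minus strand), 138 bases before the start, and that of Pold1 at chr7:44548766-44548795 (minus strand), 40 bases after it. The other members with a match were Rfc3, Lig1, Orc1, Cdc6 and Cdt1. A match is a description of letters, and binding was not measured.

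Other motifs were searched in the same windows, and matches of different motifs may share bases. The CHR element of many G2/M promoters, searched as TTTGAA on both strands, was in 15.8% of the members' windows (in Cdc45, Cdc7, Dbf4, Fen1 and Mcm2). This share lay between the 12.9% of windows of analysed genes and the 17.9% of all windows. The Cdc7 windows overlap and hold the same match. The element was in 12 of the 14 windows of a list of G2/M genes, of which 1 held an E2F match. The CCAAT box (CCAAT, both strands) was in 20 of the members' 38 windows (52.6%), in 14 of the 14 G2/M windows and in 37.4% of all windows.

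At 12 h of TNF every one of the 38 genes had a lower signal than in basal cells, most by less than 2-fold. The median log2 ratio was -0.52, with a range from -1.27 to -0.02, against a median of -0.14 over all genes, of which 62.9% were lower than basal. After loess 34 of 38 were lower, with a median of -0.32, against 45.3% of all genes and a median of 0.00; the other 4, Ccne2, Orc2, Pold1 and Prim2, were then at or above basal. By the 2-fold rule 4 of the 38 fell, Pola1, Pola2, Cdc45 and Dbf4, against 5.18% of all genes, and 0 rose, against 2.79%. Dbf4 (-1.02) was just inside that limit and Lig1 (-0.94) just outside. After loess 1 gene, Pola1, was past 2-fold (3.6% of all genes). At a looser limit of 1.5-fold 18 of 38 were lower (16.2% of all genes), and 9 after loess (10.7%).

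**Figure D1:**
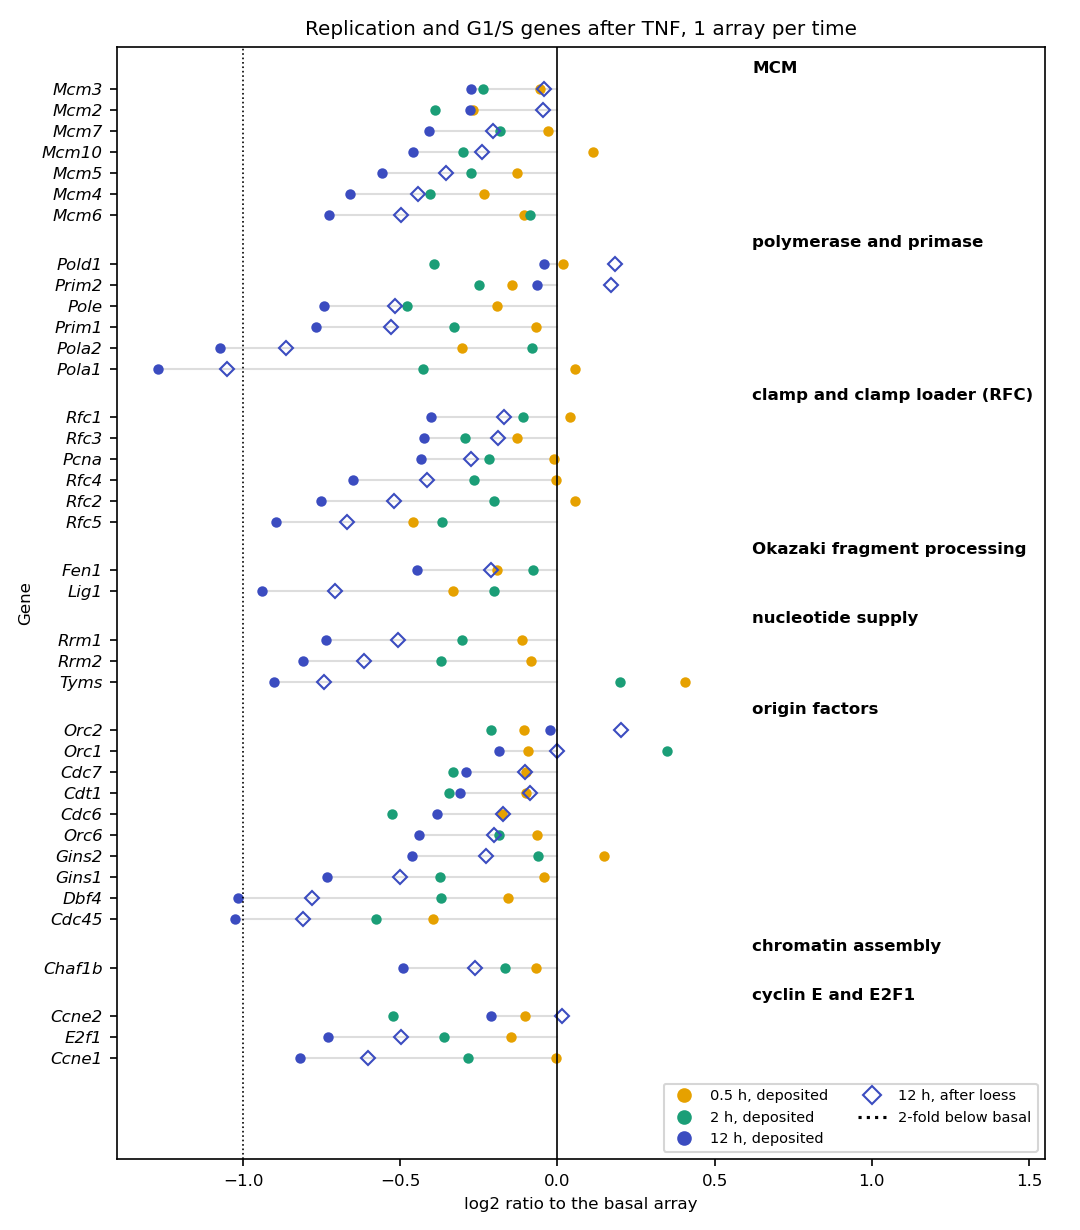
The plot gives the log2 ratio to the basal array (x axis) for each of the 38 genes (rows, grouped by role) at 0.5, 2 and 12 h as deposited, and at 12 h after loess; each point is 1 array. At 12 h the deposited ratios run from -0.02 (Orc2) to -1.27 (Pola1), and Pola1, Pola2, Cdc45 and Dbf4 lie at or past the dotted line of 2-fold.

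Low signals scatter widely on these arrays, and most of the members were not low. In 34 of the 38 genes the mean signal was above 102; the others were Tyms, Orc1, Cdc7 and Cdc6. Among all 6792 genes above that mean signal, 77.9% were lower at 12 h, 2.31% fell 2-fold, and 11.6% were at least 1.5-fold lower (4.7% after loess). For the 34 members these counts were 34, 4 and 17 (8 after loess). Compared with genes of similar signal, 35 of the 38 lay below the median of their signal range at 12 h, 31 at 2 h and 26 at 0.5 h. Between signals of 100 and 200 the 12 h log2 ratio of all genes had a median of -0.20 and a scaled median absolute deviation of 0.33, and the 12 members there had a median of -0.74. Between 400 and 800 these values were -0.24 and 0.26 for all genes, and -0.65 for 7 members.

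**Figure D2:**
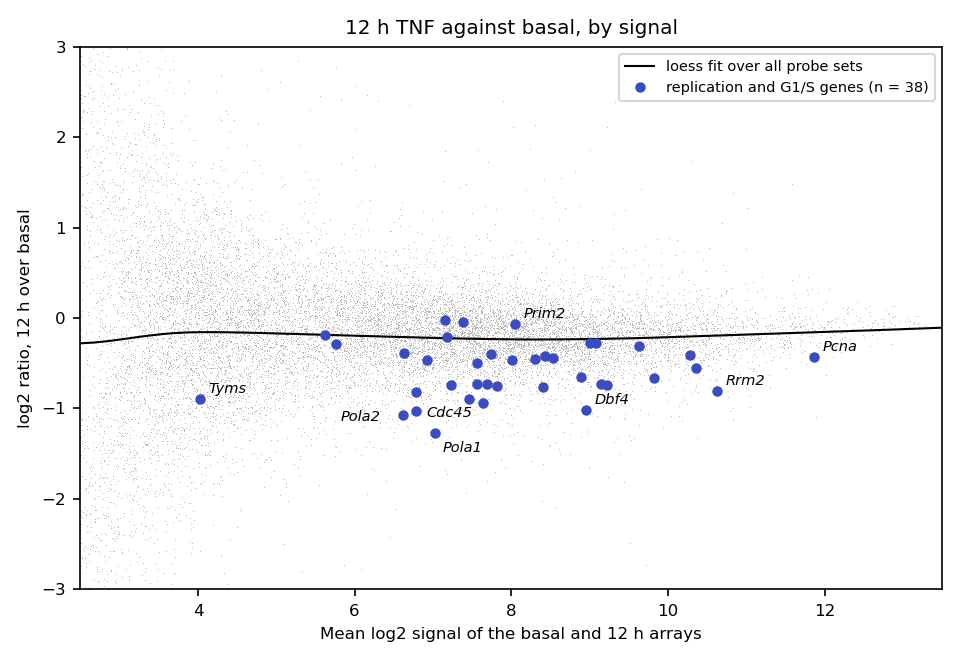
The plot sets the log2 ratio of 12 h over basal (y axis) against the mean log2 signal of both arrays (x axis) for all analysed genes (grey) and the 38 members (blue), with the loess fit as a line; points outside the axes are not shown. The grey cloud narrows with signal, and 34 of the 38 members lie below the line.

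The MCM genes, whose products form the ring of the replicative helicase, were lower at 12 h, with log2 ratios from -0.73 (Mcm6) to -0.28 (Mcm2 and Mcm3). Their median log2 ratio was -0.46 (7 genes including Mcm10, which acts with the helicase but is no part of the ring) and -0.24 after loess, and 0 of 7 fell. Mcm6 had signals of 727, 675, 684 and 439 on the basal, 0.5, 2 and 12 h arrays (log2 ratio -0.73 at 12 h), so the first 3 were close together and the last was lower. Its other probe set with a mean signal above 102 had 458, 430, 398 and 354 (-0.37), lower on every next array. Mcm4 went from 1143 to 972, 863 and 723 (-0.66), and Mcm5 from 1587 to 1453, 1311 and 1079 (-0.56), each lower on every next array. Mcm7 went from 1439 to 1410, 1269 and 1085 (-0.41). Mcm10 had signals of 143, 154, 116 and 104 (-0.46).

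On the probe sets used, Mcm2 and Mcm3 differed least from basal in this group. Mcm2 stood at 567, 471, 432 and 467, lowest at 2 h, and Mcm3 at 598, 575, 508 and 494, both with a log2 ratio of -0.28 at 12 h. After loess these were -0.05 and -0.04, so with the shift of the whole array taken off both were near basal. Mcm2 to Mcm7 have 13 further probe sets on the array. Of those of Mcm3, 1426652_at gave -0.10, 1426653_at -0.38 and 1449705_x_at -0.39 at 12 h, and the second probe set of Mcm2 gave -0.44. Other probe sets with a mean signal above 102 gave -0.35 for Mcm4, -0.51 for Mcm5 and -0.37 for Mcm6. Those of Mcm7 ran from -0.69 to -0.44. The order of these genes thus depended on the probe set.

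Primase and the polymerases held both the largest and some of the smallest differences. Pola1 (1419397_at), the catalytic subunit of polymerase alpha, had signals of 202, 210, 150 and 83.6, a 2.41-fold fall at 12 h (log2 ratio -1.27, -1.05 after loess). The basal and 0.5 h values were alike, and most of the fall came after 2 h. Pola2 (1448369_at), the second subunit of that enzyme, had 143, 115, 135 and 67.7 and fell 2.10-fold at 12 h (-1.07, -0.86 after loess). Its values at 0.5 and 2 h are in the reverse order of a steady decline, and only the 12 h value stands apart.

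The primase subunits differed from each other. Prim1, which makes the RNA primer, went from 444 to 424, 354 and 261 (-0.77 at 12 h), and its second probe set gave -0.93. Prim2, the large subunit, stood at 271, 245, 228 and 259, close to basal at 12 h (-0.06, 0.17 after loess), but its second probe set of mean signal above 102 gave -0.45. On that reading Prim2 was lower too, by less than Prim1. Pole, the catalytic subunit of polymerase epsilon, went from 194 to 170, 139 and 116 (-0.74). Pold1, that of polymerase delta, had 170, 172, 129 and 165. Its 12 h value was close to basal (-0.04, 0.18 after loess) and its 2 h value was the low one (-0.39). Its second probe set gave 145 on both the basal and the 12 h array and 119 at 2 h.

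The sliding clamp and its loader were lower in all 6 genes on the 12 h array, their median log2 ratio being -0.54 (-0.35 after loess). Pcna, the clamp, went from 4344 to 4307, 3734 and 3214 (-0.43). The basal and 0.5 h values of Pcna were nearly equal, and the later ones were lower in turn. Of the loader subunits, Rfc5 had the largest difference, with signals of 239, 174, 185 and 129 (-0.90), and it was already lower at 0.5 h (-0.46). Rfc2 went from 293 and 305 to 255 and 174 (-0.75), Rfc4 from 593 and 592 to 493 and 378 (-0.65), and Rfc3 from 398 to 297 (-0.43). Rfc1, the largest subunit, stood at 245, 252, 227 and 185 (-0.40).

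The enzymes that finish the lagging strand were both lower at 12 h. Lig1, the ligase that seals Okazaki fragments, had 276, 220, 240 and 144 (-0.94, -0.71 after loess). Fen1, the nuclease that trims their flaps, had 370, 324, 351 and 271 (-0.45, -0.21 after loess). Both were higher at 2 h than at 0.5 h on the probe sets used. The second probe set of Fen1 had 226, 239, 196 and 174 (-0.38 at 12 h), so it was lower at 2 h than at 0.5 h. Chaf1b, a subunit of the chromatin assembly factor that places histones behind the fork, went from 225 to 215, 200 and 160 (-0.49).

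Genes that supply nucleotides were lower at 12 h by a median log2 ratio of -0.81 over 3 genes (-0.62 after loess). Rrm2 (1434437_x_at), the regulated subunit of ribonucleotide reductase, went from 2102 to 1982, 1625 and 1199 (-0.81). Its other probe sets gave larger differences, -1.39 from 947 to 362 and -1.10 from 1362 to 636, so by those Rrm2 fell more than 2-fold. Rrm1, the partner subunit, went from 774 to 716, 628 and 464 (-0.74), and its second probe set of high signal gave -0.74 as well. Tyms, which makes thymidylate, had signals of only 22.2, 29.4, 25.5 and 11.9 (-0.90); at this level the scatter between arrays is wide, and its 3 other probe sets were low as well.

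Among origin factors the kinase subunit Dbf4 and the helicase factor Cdc45 fell, and the other 8 genes did not pass 2-fold. Dbf4 (1418334_at) went from 706 to 633, 546 and 349, a 2.02-fold fall (-1.02, -0.78 after loess), lower on every next array. Its kinase partner Cdc7 had low signals of 59.9, 55.9, 47.6 and 49.0 (-0.29). Cdc45 (1416575_at) went from 157 to 119, 105 and 77.2, a 2.03-fold fall (-1.02, -0.81 after loess), and had the lowest log2 ratio of the 38 genes at 2 h (-0.58). Its other probe set, of low signal (8.47 in basal cells and 24.0 at 12 h), pointed the other way. Gins1, a GINS subunit, went from 244 to 237, 188 and 147 (-0.73), and Gins2 from 304 and 337 to 291 and 220 (-0.46).

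The licensing factors were lowest at 2 h. Cdt1 had 882, 823, 695 and 711 (-0.34 at 2 h and -0.31 at 12 h), and Cdc6 had 113, 100, 78.6 and 86.8 (-0.53 and -0.38). After loess their 12 h ratios were -0.09 and -0.17. A second Cdt1 probe set with a mean signal above 102 gave larger differences. It had 367, 260, 222 and 249 (-0.50 at 0.5 h, -0.72 at 2 h and -0.56 at 12 h, as deposited). Of the origin recognition subunits, Orc6 went from 433 to 319 (-0.44), while Orc2 had 143 and 141 on the basal and 12 h arrays (-0.02, 0.20 after loess, and -0.11 and -0.01 on its other probe sets). Orc1 had signals near 50, namely 52.5, 49.1, 66.8 and 46.1. Its probe sets disagreed at 2 h (0.35 and -1.15).

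**Figure D3:**
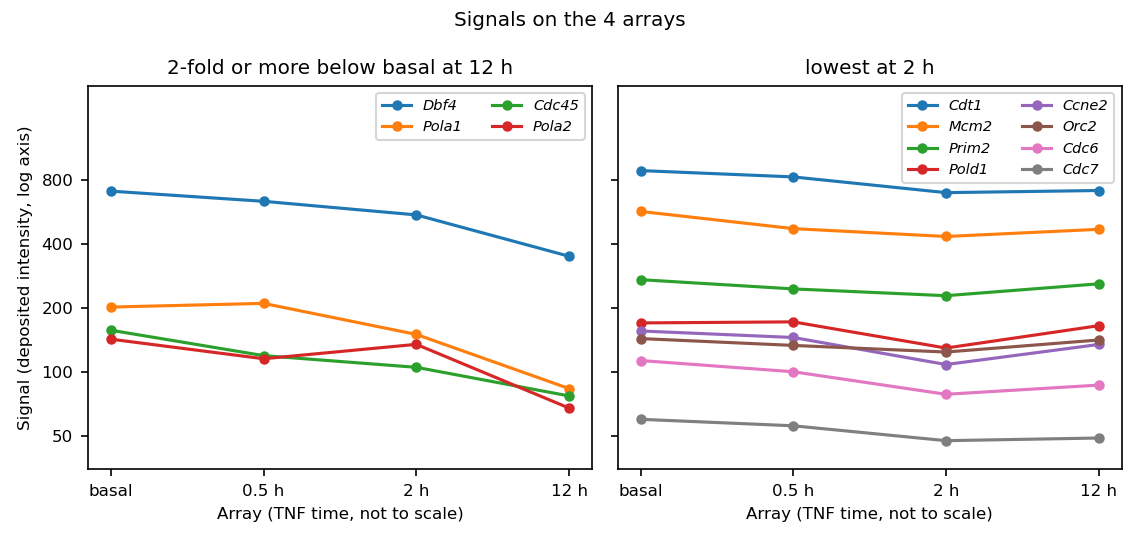
The panels give the deposited signal (y axis, log scale) of the probe set used on each of the 4 arrays. The left panel has the 4 genes that fell at 12 h. The right panel has the 8 genes that were lowest at 2 h on that probe set. Each point is 1 array. On the left the 12 h value is the lowest for all 4 genes, and on the right the 12 h value is at or above the 2 h value, as for Pold1 (129 and 165).

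The regulators at the entry to S phase were lower at 12 h as deposited, and none of the 3 passed 2-fold. E2f1, which drives many of the genes above, went from 267 to 241, 208 and 161 (-0.73, -0.50 after loess). A second E2f1 probe set, of signal 70.8 in basal cells and 117 at 12 h, pointed the other way (0.72). So did the third (1.74), at very low signals of 5.53 in basal cells and 18.4 at 12 h. Ccne1, cyclin E1, had 146, 145, 120 and 82.8 (-0.82, -0.60 after loess), and its second probe set gave -0.56. Ccne2, cyclin E2, was lowest at 2 h, with 156, 145, 108 and 135 (-0.52 at 2 h and -0.21 at 12 h, 0.01 after loess).

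At 0.5 h no member differed 2-fold from basal. The median log2 ratio was -0.10, from -0.46 (Rfc5) to 0.40 (Tyms), against -0.03 over all genes. Of the 38, 31 were lower than basal (55.7% of all genes), 0 fell (2.96%) and 0 rose (2.55%). After loess the median was -0.05, with 26 lower (47.8% of all genes).

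At 2 h the ratios were small and mostly below 0. Of the 38 genes 36 were lower than basal (61.9% of all genes), the others being Tyms and Orc1 at low signal, and 0 fell (3.6%) or rose (2.58%). The median was -0.29, against -0.09 over all genes and -0.12 over genes with a mean signal above 102. After loess the median was -0.17, with 31 of 38 lower (47.9% of all genes). The members with the lowest ratios were Cdc45 (-0.58), Cdc6 (-0.53), Ccne2 (-0.52) and Pole (-0.48).

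The steps between arrays show when the levels moved. The median step of the members was -0.10 from basal to 0.5 h, -0.20 from 0.5 to 2 h and -0.34 from 2 to 12 h on the log2 scale. These steps were -0.03, -0.04 and -0.03 for all genes, and -0.05, -0.07 and -0.09 for genes with a mean signal above 102. Neighbouring steps share an array, and the last step spans the longest time. After loess the members' steps were -0.05, -0.13 and -0.24. The largest steps from 2 to 12 h were those of Tyms (-1.10, at low signal), Pola2 (-0.99), Pola1 (-0.84), Lig1 (-0.74), Dbf4 (-0.64) and Mcm6 (-0.64). In 18 of the 38 genes each array was lower than the one before, against 14.6% of all genes. No such share was taken among genes with a mean signal above 102. The 12 h array was the lowest for 30 of 38 genes, against 41.7% of all genes and 56.8% of those with a mean signal above 102. The 2 h array was the lowest for 8 (24.8% and 22%): Mcm2, Prim2, Pold1, Orc2, Cdc6, Cdt1, Cdc7 and Ccne2. These counts are for the probe sets used. Another probe set with a mean signal above 102 was lowest at 12 h for Prim2 (235, 208, 211 and 172) and Mcm2 (449, 382, 335 and 331). For Pold1, Orc2 and Cdt1 such a probe set was lowest at 2 h as well. Pold1 (0.35) and Ccne2 (0.31) had the largest steps upward from 2 to 12 h.

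**Figure D4:**
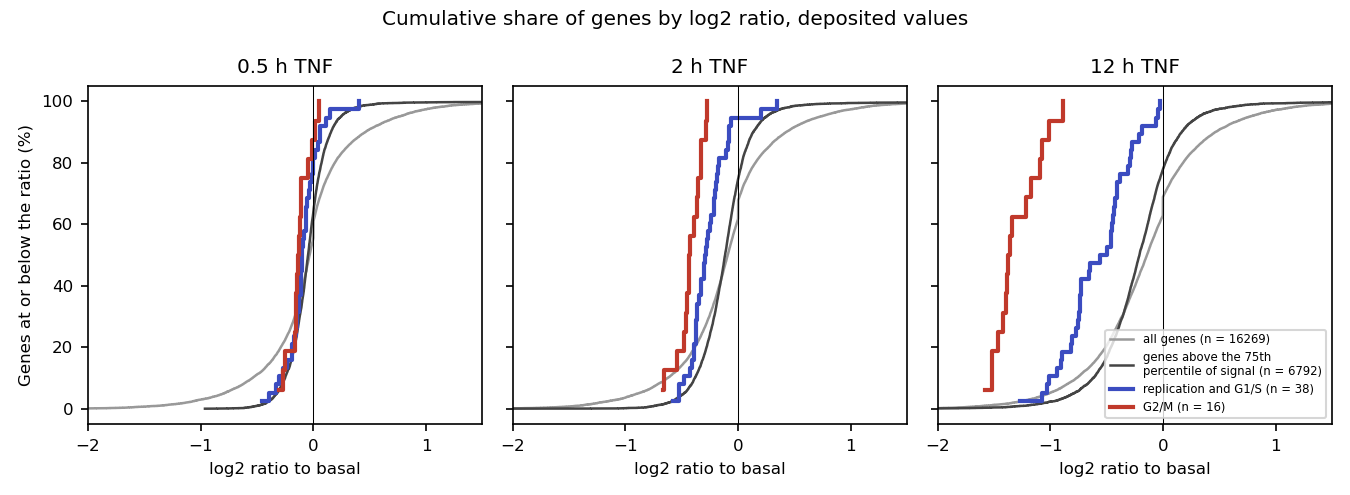
Each panel gives the cumulative percent of genes (y axis) at or below a log2 ratio to basal (x axis) at 1 time, for all 16269 genes, the 6792 genes of higher signal, the 38 replication and G1/S genes and 16 G2/M genes. At 0.5 h the medians are -0.03, -0.05, -0.10 and -0.13 in that order, and 55.7% of all genes and 31 of the 38 members are below basal. At 12 h the members' median is -0.52, between -0.14 for all genes and -1.37 for G2/M genes.

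Genes of mitosis, which act after replication, were further below basal than the members. Of 16 G2/M genes, 15 fell at 12 h (5.18% of all genes), with a median of -1.37 and a range from -1.58 to -0.88. After loess 10 fell (3.6% of all genes), with a median of -1.15. Their deposited medians at 0.5 h and 2 h were -0.13 and -0.43. Kif23, a motor of cell division, was at -1.58, Kif11, a spindle motor, at -1.52, and the mitotic kinase gene Aurka at -1.52. Closest to basal were Bub1b (-0.88) and Cdc20 (-1.01), a spindle checkpoint gene and the checkpoint's target. Of the 38 members 7 had a ratio within that range: Pola1, Pola2, Cdc45, Dbf4, Lig1, Tyms and Rfc5. With 1 array per time the difference between both lists was not tested.

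Further genes of replication, from a list that shares no gene with the members, had a median of -0.39 at 12 h (-0.18 after loess). Of these 34 genes 28 were lower (62.9% of all genes), 2 fell (5.18%) and 0 rose (2.79%). Dscc1, of an alternative clamp loader, fell from 167 to 81.2 (-1.04, -0.82 after loess), and Ticrr, named after its value was seen, went from a low signal of 21.6 to 9.19, next to the floor of 9.08. Rnaseh2b, a subunit of an RNase that removes ribonucleotides, was at -0.96, and Clspn, a checkpoint adaptor at the fork, at -0.86. Donson (0.20) and Orc4 (0.17) were the highest of this list among genes with a mean signal above 102.

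Nucleotide supply was not lower throughout. Of 9 further genes 6 were lower at 12 h, against 62.9% of all genes, with a median of -0.21. After loess 4 were lower, against 45.3% of all genes, with a median of 0.01. Tk1, which salvages thymidine, fell from 757 to 362 (-1.06, -0.83 after loess), and Dck and Dut were at -0.62 and -0.54. Ctps, which makes CTP, went from 742 to 974 (0.39), and Shmt1 was at 0.20. All 10 genes of chromatin duplication were lower (median -0.53), against 62.9% of all genes, and 0 fell, against 5.18%. Among them Hat1, a histone acetyltransferase, was at -0.83, Dnmt1, the maintenance DNA methyltransferase, at -0.72 and the histone chaperone gene Asf1b at -0.72. Uhrf1 (-0.33) and Rbbp4 (-0.31) were closest to basal.

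Of 24 further G1/S regulators 21 were lower at 12 h (62.9% of all genes), 2 fell (5.18%) and 0 rose (2.79%). Their median was -0.34. After loess 15 were lower (45.3% of all genes), with a median of -0.11. Ccna2, cyclin A2, which acts in S and G2, fell from 1038 to 410 (-1.34, -1.11 after loess). E2f8, an E2F family repressor named after its value was seen, fell from 65.3 to 16.6 (-1.97, -1.80 after loess). Cdc25a, a phosphatase that activates cyclin kinases, was at -0.88 and Rbl1, a relative of the retinoblastoma protein, at -0.67. Cdk6, a kinase of G1, went from 295 to 414 (0.49), and Ccnd2, cyclin D2, was level at 3155 and 3120 (-0.02, 0.15 after loess).

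The other probe sets of the members are a second reading of the same RNA on the same arrays, not a replicate. There were 50 for 31 of the 38 genes. Of the 23 with a mean signal above 102, 23 were below basal on the 12 h array, their median log2 ratio being -0.45, and they differed from the probe set used by a median of 0.11 and at most 0.58 (Rrm2). Of the 27 weaker ones 20 were below basal. The weak probe sets of E2f1, Cdc45, Cdc7, Gins1, Mcm6 and Pola2 held the 7 that were above it. In 8 of the 38 genes the name of the probe set used carries the suffix _x_at or _s_at, which marks probes that may also match other transcripts.

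**Figure D5:**
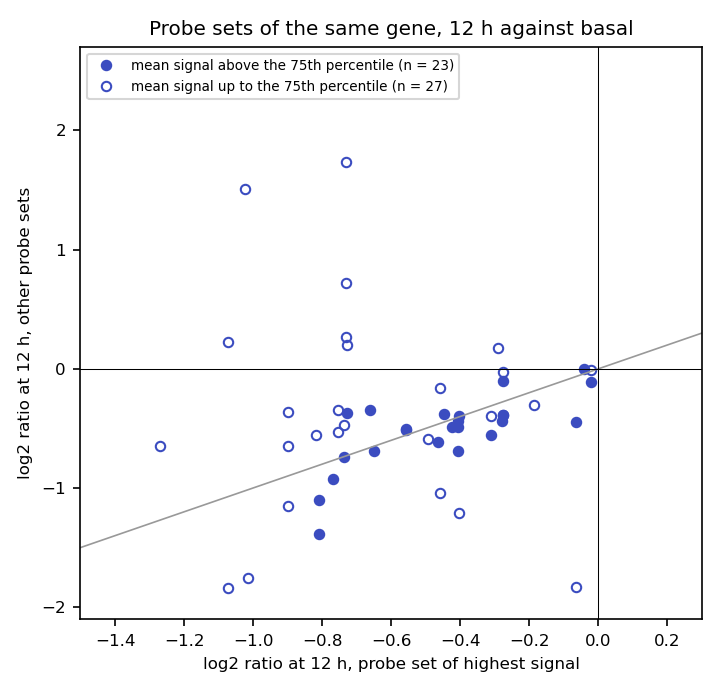
Each point is 1 further probe set of a member, with its 12 h log2 ratio (y axis) against that of the probe set of highest signal of the same gene (x axis); filled points have a mean signal above 102 and the grey line marks equality. The 23 filled points are all at or below 0, and the 7 points above 0 are all open.

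Members with and without the E2F letters overlapped in their 12 h values. The 11 with a match had a median log2 ratio of -0.41, from -1.27 (Pola1) to -0.04 (Pold1). The 20 with a promoter window and no match had a median of -0.69, from -1.07 (Pola2) to -0.02 (Orc2). These medians are descriptions of 1 array per time, and no match says only that these letters are not in this window.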

How the data were processed

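RNA of 4 samples of mouse 3T3 fibroblasts was measured on 1 Affymetrix 430 2.0 array each, per the labels. Each probe set has 1 intensity on a linear scale, as deposited. How the authors computed and scaled it is not given in the sources used here. Of 45101 probe sets 64 were controls, 34945 named 1 gene in GEO's platform annotation, 932 several and 9160 none. All symbols of the 38 members were found in the RefSeq gene table of GRCm38.p6. Signals were raised to the 30th percentile of all values (9.08), and log2 ratios to basal were taken from the deposited values (Python 3.11.15, pandas 2.3.3). Genes at the floor on all arrays were left out. Loess of each TNF array on the basal array used a span of 0.3 (statsmodels 0.14.6), before the floor. Alternatives were median centring, quantile normalization, other floors, averaging all probe sets per gene and a 1.5-fold rule, and 2 more were added after seeing the data. The members and lists were chosen with earlier results of these data known. Beside the members, the 3 largest decreases and 2 largest increases at 12 h of each list are named, among genes with a mean signal above 102. Scripts were tested on simulated data. Array number limits the precision.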

Additional observations from a re-analysis of the deposited data

How the results depend on the processing

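With 1 array per group no value has a replicate error, and no array could be left out. No paired analysis was possible because each group is 1 array and the labels carry no replicate numbers. The median log2 ratio of the members at 12 h, -0.52 as deposited, was -0.32 with loess, -0.34 with quantile normalization and -0.37 with median centring. With loess the medians at 0.5 and 2 h went from -0.10 to -0.05 and from -0.29 to -0.17. All stayed below 0. The number of members at least 2-fold lower at 12 h, 4 as deposited, was 1 with loess, median centring or quantile normalization (Pola1). It was also 1 with a floor at the 75th percentile, but there the gene was Dbf4. The number was 18 with the 1.5-fold rule and 2 when all probe sets per gene were averaged (Dbf4 and Rrm2). Pola1 was thus not among the genes that fell with that floor or with that average. The floor is a signal of 102, and basal signals of Pola1 (202), Pola2 (143) and Cdc45 (157) lie less than 2-fold above it. These genes could not fall 2-fold there, so their absence with that floor does not bear on their fall as deposited. The average for Pola1 includes 1459319_at, of very low signal (7.68 in basal cells and 4.92 at 12 h), which gave -0.64. At 0.5 h the number of members at least 2-fold lower was 0 as deposited and 1 (Gins1, -1.28) with all probe sets averaged. Averaging also turned the direction of Cdc45 at 12 h to 0.24 and put E2f1 above basal; both have probe sets of low signal that point upward. For single members and subgroups, 924 values stayed within a tolerance of 0.16 and on the same side of the 2-fold rule, and 158 did not. The tolerance is the spread over single genes of the 0.5 h ratio, not a replicate error. A further 1, that of Cdc45 at 12 h, was past 2-fold as deposited and turned to above basal. Among the 158, values that had not passed 2-fold changed sign too, as that of E2f1 at 12 h did with all probe sets averaged. With that average Cdc45, E2f1, Rrm1, Mcm5, Mcm6 and Chaf1b went from below to above basal at 0.5 h. Mcm10, Pola1, Tyms and Rfc1 went from above to below. Pold1 and Gins2 also crossed to below basal, by less than the tolerance. Leaving out probe sets with the suffix _x_at or _s_at, chosen after seeing the data, gave a median of -0.53 at 12 h and 5 members that fell, Rrm2 being added. The 34 members with a mean signal above 102, also chosen after seeing the data, had a median of -0.60.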
